A study of Mus musculus with 4 samples.

Results

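Genes of the NF-kappaB system were examined in RNA-seq counts from primary mouse chondrocytes, the cell type of cartilage. The set was chosen by gene symbol and holds 10 of the 25239 symbols in the count table: 4 subunits (Rela, Relb, Nfkb1 and Nfkb2), 3 genes of the IkappaB family (Nfkbia, Nfkbiz and Bcl3), the feedback inhibitor Tnfaip3, and 2 adhesion molecule genes that NF-kappaB induces in many cells (Icam1 and Vcam1). All 10 passed the filter on low counts. The 2 control libraries came from mice of the genotype Tiki2 fl/fl. The 2 conditional knockout (cKO) libraries came from mice with the same floxed alleles and a tamoxifen-activated Cre, given as Col2a1-Cre/ERT in the titles and Col2a-CreERT2 in the genotype field, which the Col2a1 promoter drives in cartilage cells. All 4 cultures were treated with 4-hydroxytamoxifen, and the sources used here give no age, dose or duration. As the Cre is present in the cKO libraries alone, its own effect and that of losing Tiki2 (gene symbol Trabd2b) cannot be told apart. Whether replicates are separate animals is not stated in the labels, so the p-values reflect the spread between these libraries. That spread need not be the spread between animals. The control libraries differ in sex-linked genes and the cKO libraries in muscle markers (both below), so neither pair repeats 1 RNA sample.

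NF-kappaB is a family of dimeric transcription factors that waits in the cytoplasm bound to IkappaB proteins. Signals from interleukin-1, tumour necrosis factor or Toll-like receptors activate a kinase complex that marks IkappaB for destruction, and the freed dimers enter the nucleus and bind kappaB sites in the promoters of their targets. Several targets, Nfkbia and Tnfaip3 among them, code for proteins that shut the signal down again. In cartilage the pathway is known for inducing matrix-degrading enzymes, nitric oxide synthase and chemokines during joint inflammation.

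Icam1 fell by 31.0% in cKO and was the only member past the threshold, an edgeR quasi-likelihood p under 0.05 after Benjamini-Hochberg adjustment over all 15522 genes tested. The other adhesion gene, Vcam1, lay on the opposite side of 0 (27.3% higher in cKO) and did not pass. Relb, Tnfaip3 and Bcl3 were lower in both cKO libraries than in both controls (log2 fold changes of -0.34, -0.41 and -0.17) and did not pass either. Rela, Nfkb1, Nfkb2, Nfkbia and Nfkbiz each differed from the control level by 3.97% or less. This 1 call among 10 stands beside 1.30% of all genes tested, of which 0.908% were called lower and 0.393% higher.

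Libraries held between 66750140 and 78873054 counts. Control replicate 1 stood apart in sex-linked genes, with 112185 Xist counts and 0 of Ddx3y, against 36 to 171 Xist and 11073 to 12085 Ddx3y counts in the other libraries. EdgeR called 202 genes with all libraries, and far fewer when either control library was left out. Each of those fits has 1 control, so the drop cannot be tied to the sex-linked difference. The targeted gene Trabd2b was still expressed in cKO, at 292 and 363 CPM (counts normalised to library size with TMM factors, here and below) against 436 and 415 CPM in controls (log2 fold change -0.38 ± 0.11, SE; edgeR adjusted p = 0.15). These counts cover the whole gene and do not isolate the floxed part. Chondrocyte markers were abundant, with a summed level over 11 genes of 28280 and 33097 CPM in controls, against 16133 and 11878 CPM in cKO. Of 8 endothelial markers, Pecam1, Cdh5, Emcn, Tie1 and Cldn5 had fewer than 10 counts in every library, and Vwf had the most, 155 to 254. Of 12 leukocyte markers, Adgre1, Tyrobp and C1qb had fewer than 10 in every library and Ptprc had 16 in control replicate 1 and 0 elsewhere, while the most abundant were Cd68 with 626 to 820, Cd14 with 547 to 746 and Lyz2 with 120 to 249.

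Positions are given on mm10. The subunit Rela (chromosome 19, 5637483 to 5648130) codes for p65, the main activating partner in the classical dimer. Its level was 65.2 and 66.6 CPM in controls, against 68.1 and 65.6 CPM in cKO. Nfkb1 (chromosome 3, 135584655 to 135691547), which codes for the precursor of the DNA-binding partner of p65, stood at 84.3 and 88.7 CPM in controls, against 87.0 and 84.4 CPM in cKO. In both genes the libraries of the groups overlapped and replicates differed from each other by as much as the genotypes did. The log2 fold change was 0.02 for Rela (95% interval -0.12 to 0.16) and -0.01 for Nfkb1 (-0.16 to 0.13). As a percent change in RNA, the interval ran from -7.96% to 12.0% for Rela and from -10.3% to 9.47% for Nfkb1.

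The other subunits belong to the alternative arm of the pathway, in which Relb pairs with the product of Nfkb2. Nfkb2 (chromosome 19, 46304320 to 46312385) was at 41.7 and 37.9 CPM in controls, against 37.0 and 39.5 CPM in cKO, again with overlapping groups (log2 fold change -0.06, 95% interval -0.27 to 0.15). Relb (chromosome 7, 19606217 to 19629438) was at 27.7 and 25.8 CPM in controls, against 22.8 and 19.5 CPM in cKO, so both cKO libraries lay under both controls. Its log2 fold change was -0.34 ± 0.11 (SE), with an edgeR adjusted p of 0.19 and an unadjusted p of 0.0198. Without a single library the value ran from -0.23 to -0.46, and the lowest of these edgeR adjusted p-values was 0.102. Relb and Nfkb2 are both known to be induced by the classical dimer, and the difference between their fold changes was not tested.

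Ratios within a library do not depend on scaling between libraries. The ratio of Relb to Rela counts was 0.425 and 0.388 in controls and 0.335 and 0.298 in cKO, without overlap. That of Nfkb2 to Nfkb1 was 0.495 and 0.428 in controls and 0.425 and 0.467 in cKO, with overlap. The first pair sets the alternative against the classical transactivating subunit, the second compares the precursor genes.

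**Figure D1:**
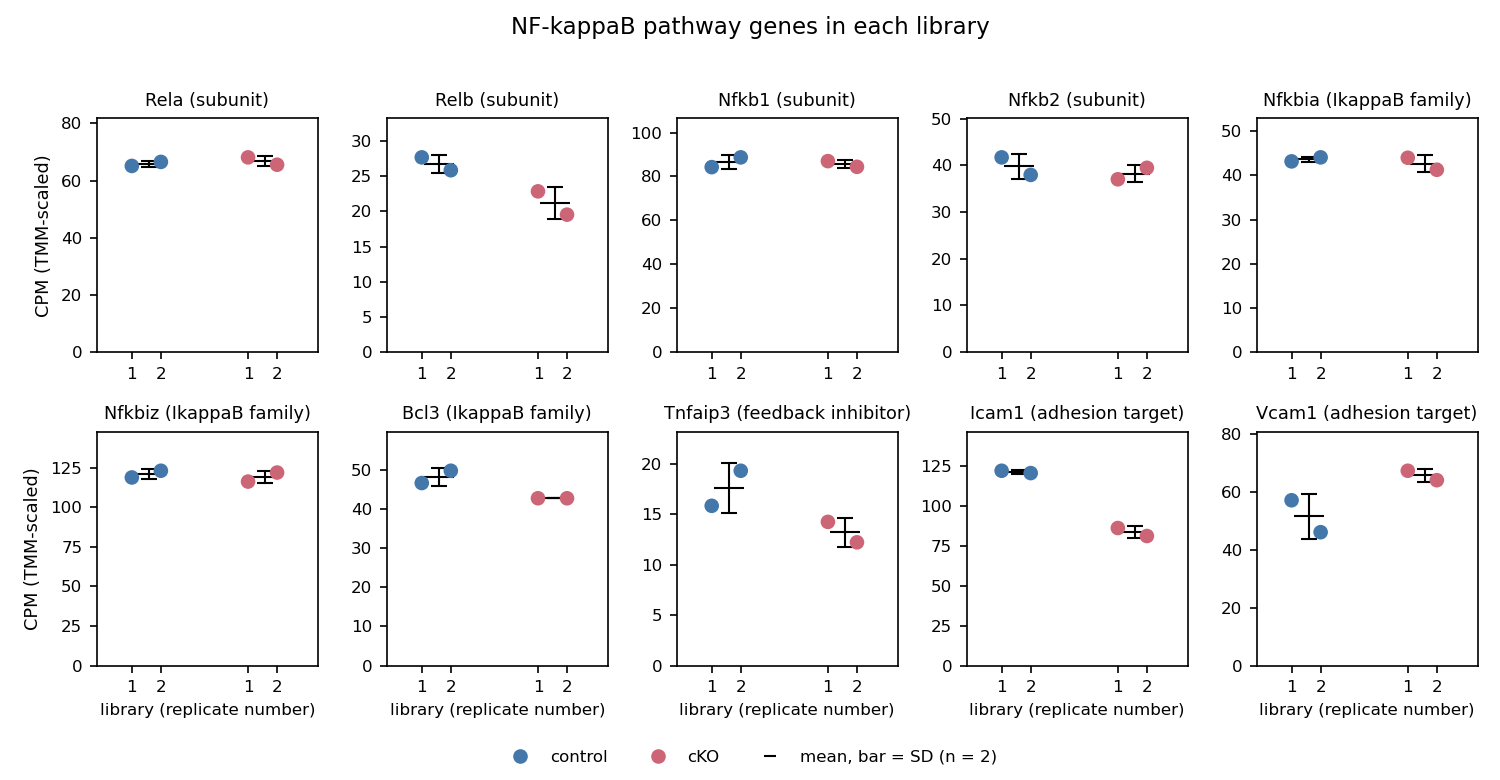
Expression of the 10 NF-kappaB genes in each library (vertical axis, TMM-scaled CPM from 0; horizontal axis, replicate number within group; blue, control; red, cKO; black marks, mean with SD, n = 2). Icam1 falls from about 121 and 122 CPM to 81.3 and 86.4 CPM, while Rela, Nfkb1, Nfkb2, Nfkbia and Nfkbiz overlap between the groups.

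Among the IkappaB family, Nfkbia (chromosome 12, 55489410 to 55492647) codes for IkappaB-alpha, which holds the dimers in the cytoplasm and is resynthesised as they become active. It was at 43.2 and 44.1 CPM in controls, against 44.0 and 41.2 CPM in cKO (log2 fold change -0.03, 95% interval -0.21 to 0.15). The ratio of Nfkbia to Rela counts was 0.662 in both controls and 0.645 and 0.629 in cKO. Although these ratios did not overlap, they differed by little and rest on 2 libraries a group.

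The promoter of Nfkbia is shown because the gene is a textbook readout of NF-kappaB and hardly moved here. The sequence is the 250 bases before its RefSeq start (build GRCm38.p6, chr12:55492648-55492897, minus strand), written 5′ to 3′, and capitals mark matches to any of 3 motifs searched on both strands: the degenerate kappaB consensus of 10 bases, GGANNTTCC and GGGNNTTCC, which can overlap each other.
Nfkbia: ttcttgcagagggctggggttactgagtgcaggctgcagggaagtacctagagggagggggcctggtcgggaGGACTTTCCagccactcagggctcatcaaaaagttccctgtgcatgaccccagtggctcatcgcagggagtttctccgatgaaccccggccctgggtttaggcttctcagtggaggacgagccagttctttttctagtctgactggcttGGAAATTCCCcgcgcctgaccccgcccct
The last 10 capitals start 29 bases before the start site and match the consensus, and the first capitals start 178 bases before it and match GGANNTTCC. In windows that also take in the first 50 transcribed bases, 4.51% of 32851 RefSeq promoters hold the consensus, 4.26% GGANNTTCC and 5.82% GGGNNTTCC. Windows were at hand for 6 of the 10 genes, and 4 of these, Nfkb2, Nfkbia, Bcl3 and Tnfaip3, held the consensus in at least 1 window (Nfkb2 has 3 windows and Tnfaip3 has 2). Counted by gene in the same way, 5.14% of 27025 genes hold it. GGANNTTCC was matched in Nfkb2, Nfkbia, Tnfaip3 and Icam1, GGGNNTTCC in Nfkb2, Bcl3 and Tnfaip3, and Rela held none of them. A match is a string of letters and not a measured binding site.

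Nfkbiz and Bcl3 code for nuclear IkappaB proteins that act on the transcription of chosen targets. Nfkbiz (chromosome 16, 55811375 to 55838899) was at 119 and 123 CPM in controls, against 116 and 122 CPM in cKO, with overlapping groups (log2 fold change -0.02, 95% interval -0.16 to 0.12). Bcl3 (chromosome 7, 19808462 to 19822770) was at 46.6 and 49.7 CPM in controls, against 42.7 CPM in both cKO libraries, all cKO values being lower. Its log2 fold change of -0.17 ± 0.07 (SE) had an edgeR adjusted p of 0.29 and a 95% interval from -0.35 to 0.00. For Bcl3 the nearest libraries of the groups were 1.09-fold apart, against 1.07-fold between the controls.

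Tnfaip3, which codes for an enzyme that edits ubiquitin chains on the receptor complexes and so ends the signal, had the lowest level per exon length of the set. The gene (chromosome 10, 19000910 to 19015657) was at 15.9 and 19.3 CPM in controls, against 14.3 and 12.2 CPM in cKO, so the groups did not overlap. The log2 fold change was -0.41 ± 0.14 (SE; edgeR adjusted p = 0.21, unadjusted p = 0.0250). The controls alone differed 1.22-fold, more than the 1.11-fold gap between the nearest libraries of the groups. Leaving out control replicate 1 gave -0.55 and leaving out control replicate 2 gave -0.26, with edgeR adjusted p-values of 0.26 and 0.56. One of its RefSeq promoter windows held gggacacccc 125 bases and ggaaatcccc 12 bases before the start, both consensus matches.

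Icam1 codes for a cell surface receptor of the immunoglobulin superfamily that binds leukocyte integrins, and is a classic NF-kappaB target. Counts were 7999 and 9112 in controls and 6697 and 6610 in cKO. After scaling, the level was 122 and 121 CPM in controls, against 86.4 and 81.3 CPM in cKO, a mean of 122 ± 1.04 CPM against 83.8 ± 3.55 CPM (SD, n = 2). Both cKO libraries were far below both controls: the nearest libraries of the groups were 1.40-fold apart, while the controls differed 1.01-fold and the cKO libraries 1.06-fold.

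The log2 fold change of Icam1 was -0.54 ± 0.06 (SE), with a 95% interval from -0.68 to -0.39. The edgeR adjusted p was 0.0289, and the gene ranked 35 by p among the 15522 tested. The size hardly depended on any library, from -0.49 without cKO replicate 2 to -0.58 without cKO replicate 1. The call did depend on them: the edgeR adjusted p was 0.13 at -0.53 without control replicate 1, the library that stands apart in sex-linked genes, and 0.15 at -0.54 without control replicate 2. Each of these fits has 1 control library, assumed to vary like the cKO group.

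The Icam1 gene (ENSMUSG00000037405.8, protein-coding) lies on mm10 chromosome 9 from 21015985 to 21028817. The antisense gene Gm47079 covers 511 bases (11.7%) of its exons on the opposite strand and was not analysed here, and with no strand setting stated its reads cannot be told from those of Icam1. Opposite-strand genes also cover 161 exon bases of Bcl3 and 61 of Vcam1, and Nfkb2 shares 299 with Psd (184 to 377 counts per library) and 531 with another. The 250 bases before the RefSeq start (GRCm38.p6, chr9:21015690-21015939, plus strand) are shown for the single member that passed the test, with matches to any of the 3 motifs in capitals.
Icam1: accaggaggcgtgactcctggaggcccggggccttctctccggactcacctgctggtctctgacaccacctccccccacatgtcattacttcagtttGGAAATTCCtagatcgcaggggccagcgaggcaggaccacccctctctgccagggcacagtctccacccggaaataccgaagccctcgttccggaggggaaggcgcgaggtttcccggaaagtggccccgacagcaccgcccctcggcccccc
The window holds 1 match, GGAAATTCC, which starts 153 bases before the start site and meets GGANNTTCC on either strand. Neither the consensus of 10 bases nor GGGNNTTCC was found. The Nfkbia window above carries the same GGAAATTCC letters inside its consensus match.

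Vcam1 (chromosome 3, 116109949 to 116129688), the partner of Icam1 in leukocyte binding and likewise an NF-kappaB target, was at 57.0 and 46.0 CPM in controls, against 67.2 and 63.9 CPM in cKO. Both cKO libraries were above both controls, but the controls differed 1.24-fold from each other and the nearest libraries of the groups only 1.12-fold. The log2 fold change was 0.35 ± 0.11 (SE), with a 95% interval from 0.09 to 0.61, an edgeR adjusted p of 0.17 and an unadjusted p of 0.0164. By DESeq2 the adjusted p was 0.0553; that tool called 1 member, Icam1, against 8.73% of the genes to which it gave an adjusted p (4.82% lower and 3.91% higher). Without control replicate 1 the value was 0.51 and without control replicate 2 it was 0.20, and neither passed (edgeR adjusted p = 0.15 and 0.44).

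The values of the adhesion genes lay on opposite sides of 0 in the same cultures. The ratio of Icam1 to Vcam1 counts was 2.15 and 2.63 in controls and 1.29 and 1.27 in cKO. Every cKO library had a lower ratio than every control, and the cKO pair was closer together than the control pair. With 2 libraries a group no exact test can pass 0.05, so the ratios are given as values.

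**Figure D2:**
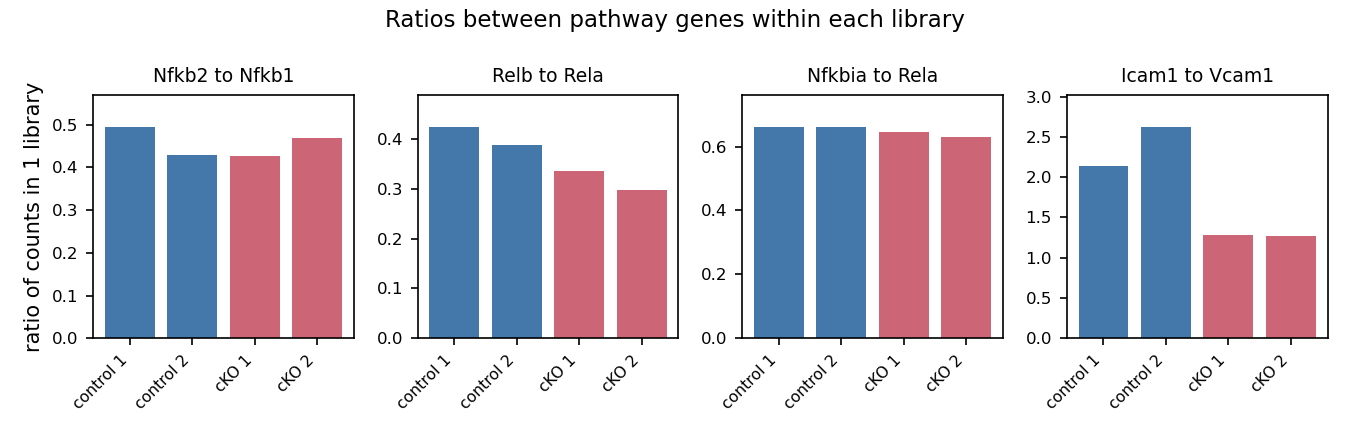
Ratios of raw counts between 2 genes of the set (vertical axis, from 0) in each of the 4 libraries (blue, control; red, cKO; 1 bar per library). Icam1 to Vcam1 drops from 2.15 and 2.63 to 1.29 and 1.27, whereas Nfkb2 to Nfkb1 overlaps between the groups.

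**Figure D3:**
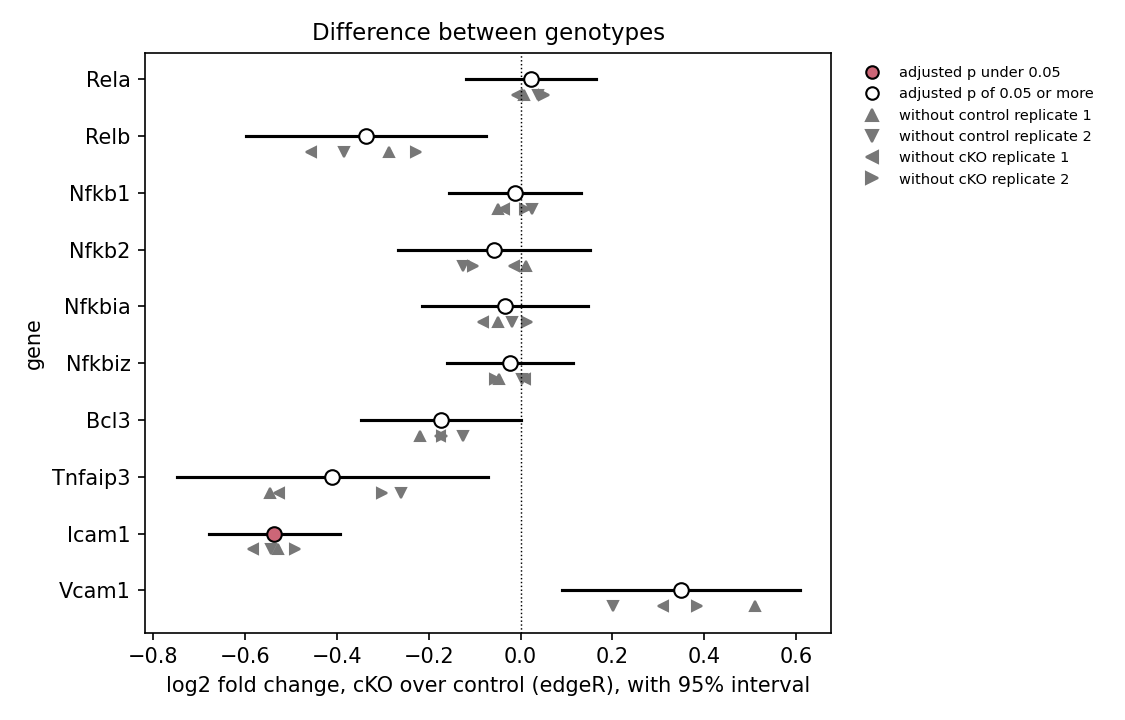
Log2 fold change of cKO over control for each gene (circle; bar, 95% interval; filled, adjusted p under 0.05) and the value in edgeR fits without each library (grey triangles). Icam1 keeps a value between -0.58 and -0.49 in these fits, while Tnfaip3 and Vcam1 shift with the control library left out.

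Read over the whole set, 8 of the 10 genes were below 0 and 2 above, with a median log2 fold change of -0.05 against 0.00 over all genes tested. When library sizes alone were used for scaling, the median of all genes was 0.07 and that of the set 0.02, so the side on which the level genes fall depends on scaling. That scaling also changed the split of all calls from 61 higher and 141 lower to 116 higher and 123 lower, while Icam1 was still the 1 member called. Before adjustment, 4 members (Relb, Tnfaip3, Icam1 and Vcam1) had an edgeR p under 0.05, against 17.2% of all genes. The groups did not overlap in 5 of the 10, against 49.8% of all genes, so that count is at the background.

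Levels of different genes can be compared only per length, and CPM per kilobase of merged exons (GENCODE M21) was used. Merging all annotated transcripts makes genes with long rare exons look low. In controls the order ran from Icam1 (27.9 ± 0.237, SD, n = 2) through Nfkbia (27.1 ± 0.398), Nfkbiz (24.1), Rela (21.4) and Bcl3 (19.4) to Nfkb2 (8.69), Nfkb1 (7.17), Relb (6.89), Vcam1 (5.81) and Tnfaip3 (2.44). In cKO Icam1, at 19.2 ± 0.814 CPM per kilobase, came after Nfkbia, Nfkbiz and Rela, and Vcam1, at 7.39 ± 0.260, came ahead of Nfkb1 and Relb. Neighbours in the order whose libraries overlapped were Nfkb1 and Relb in controls and Vcam1 and Nfkb1 in cKO.

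The genes whose profile over the 4 libraries was nearest to that of Icam1, by Euclidean distance of centred log2 CPM among 11785 genes, were Slc25a33 (distance 0.0262), Bhlhe41 (0.0289), Fbxl15 (0.0343), Hspa5 (0.0402) and Slc1a5 (0.0418). Hspa5 codes for the main chaperone of the endoplasmic reticulum and Slc1a5 for a neutral amino acid transporter. As the likeness is over 4 libraries and includes the genotype difference, it describes these profiles only. None of the other 9 NF-kappaB genes was among these 5. Their log2 fold changes ran from -0.41 to 0.35, against -0.55 to -0.51 for the 5, so their absence adds nothing to those values.

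Over 9 lists of other pathway genes, 135 genes that are not members were tested, of which 3 fell and 1 rose. These 4 calls are 2.96% of the genes, against 1.30% of all genes tested, and the median log2 fold change was -0.03. With the 5 members that stand in these lists, 140 genes were tested, and DESeq2 called 19 of them, 12 lower and 7 higher. That tool called 8.73% of all genes to which it gave an adjusted p. None of the 7 further Rel and IkappaB family genes was called by edgeR (0 at an unadjusted p under 0.05) or by DESeq2. The proto-oncogene Rel had a log2 fold change of -0.07, while Commd1, which promotes removal of p65, was at -0.17, Nfkbie at 0.25 and Nkap at 0.08. None of the 16 genes of the IkappaB kinase complex and the kinases above it passed by edgeR, while 2 had an unadjusted p under 0.05 and DESeq2 called 1. Ripk2, a kinase downstream of NOD receptors, was at -0.41 (edgeR adjusted p = 0.12), Tab3 at 0.24 and Tab2 at -0.12. Rel and the core kinase genes Chuk, Ikbkb and Ikbkg, and Tnf, Il1b and Itgal below, were chosen for their role after their values were seen. Chuk, Ikbkb and Ikbkg were at -0.12, 0.15 and 0.09.

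Upstream, none of 28 receptors and adaptors was called by edgeR (1 at an unadjusted p under 0.05), and DESeq2 called 1. Il1r1, the signalling receptor of interleukin-1, was at 191 and 181 CPM in controls, against 217 and 294 CPM in cKO (log2 fold change 0.46, edgeR adjusted p = 0.17). The adaptor Traf5 was at 0.58 and the ubiquitin ligase Birc2 at -0.17. Of 13 cytokine ligands only 8 had enough counts to test, and none passed by edgeR or DESeq2 (1 at an unadjusted p under 0.05). Transcripts of the main inducing cytokines were scarce: Tnf had 33 and 18 counts in controls and 10 and 0 in cKO, and Il1b had 10 and 0 in controls and 0 and 1 in cKO. Tnfsf12, which codes for TWEAK, was at 0.45, Il17d at -0.48 and the alarmin Il33 at 0.87.

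None of 19 negative regulators was called by edgeR (4 at an unadjusted p under 0.05, all higher), and DESeq2 called 1. These 4 are 21.1% of the list, near the 17.2% of all genes tested, and 12 of the 19 log2 fold changes were below 0. Il1rn, which codes for the interleukin-1 receptor antagonist, was at 260.0 and 258 CPM in controls, against 334 and 573 CPM in cKO, so the cKO libraries were far apart (log2 fold change 0.81 ± 0.23, SE; edgeR adjusted p = 0.15). Pdlim2, a ubiquitin ligase for nuclear p65, was at 0.47 and the inhibitor N4bp1 at 0.16. Among 6 chondrocyte regulators linked to NF-kappaB none was called by edgeR (1 at an unadjusted p under 0.05) and DESeq2 called 1, with Sox9 at -0.38, Lrp6 at 0.17 and Epas1 at -0.27.

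Of 38 secreted and enzyme targets tested, 5 of them members of the set, 3 fell and 0 rose by edgeR. These 3 are 7.89% of the list, against 1.30% of all genes tested (0.908% lower and 0.393% higher). DESeq2 called 11, 9 lower and 2 higher, against 8.73% of all genes to which it gave an adjusted p. Nos2, which makes nitric oxide in inflamed cells, went from 91.3 and 84.4 to 37.1 and 22.3 CPM (edgeR adjusted p = 0.0386). Lcn2, an iron-binding acute-phase protein, went from 4148 and 3266 to 2048 and 1912 CPM (edgeR adjusted p = 0.0319). Ier3, an early response gene linked to cell survival, was at 151 and 150.5 CPM in controls, against 87.9 and 70.2 CPM in cKO, a log2 fold change of -0.93 ± 0.11 (SE; edgeR adjusted p = 0.0289). All cKO libraries lay below all controls for these genes.

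The targets that edgeR did not call went both ways. With the members left out but the 3 called genes still counted, 19 of 33 targets had an unadjusted edgeR p under 0.05, 14 lower and 5 higher. Their median log2 fold change was -0.12. That is 57.6% of these genes, against 17.2% of all genes tested (8.88% lower and 8.36% higher). The list was chosen with earlier results of these data known, so these shares describe it and are not a test. Ccl2, a monocyte chemokine, was at 149 and 112 CPM in controls, against 163 and 180.2 CPM in cKO, and Csf1, a macrophage growth factor, at 517 and 566 CPM, against 644 and 667 CPM. Neither passed (edgeR adjusted p = 0.21 and 0.11), and both were chosen after their values were seen, as examples with the sign of Vcam1. The uncalled targets with the smallest p were lower in cKO, Cxcl1 at -0.85 and Mmp3 at -0.76 (edgeR adjusted p = 0.0642 for each). The list held 3 calls in the full fit, 0 without control replicate 1, 2 without control replicate 2, 6 without cKO replicate 1 and 4 without cKO replicate 2.

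**Figure D4:**
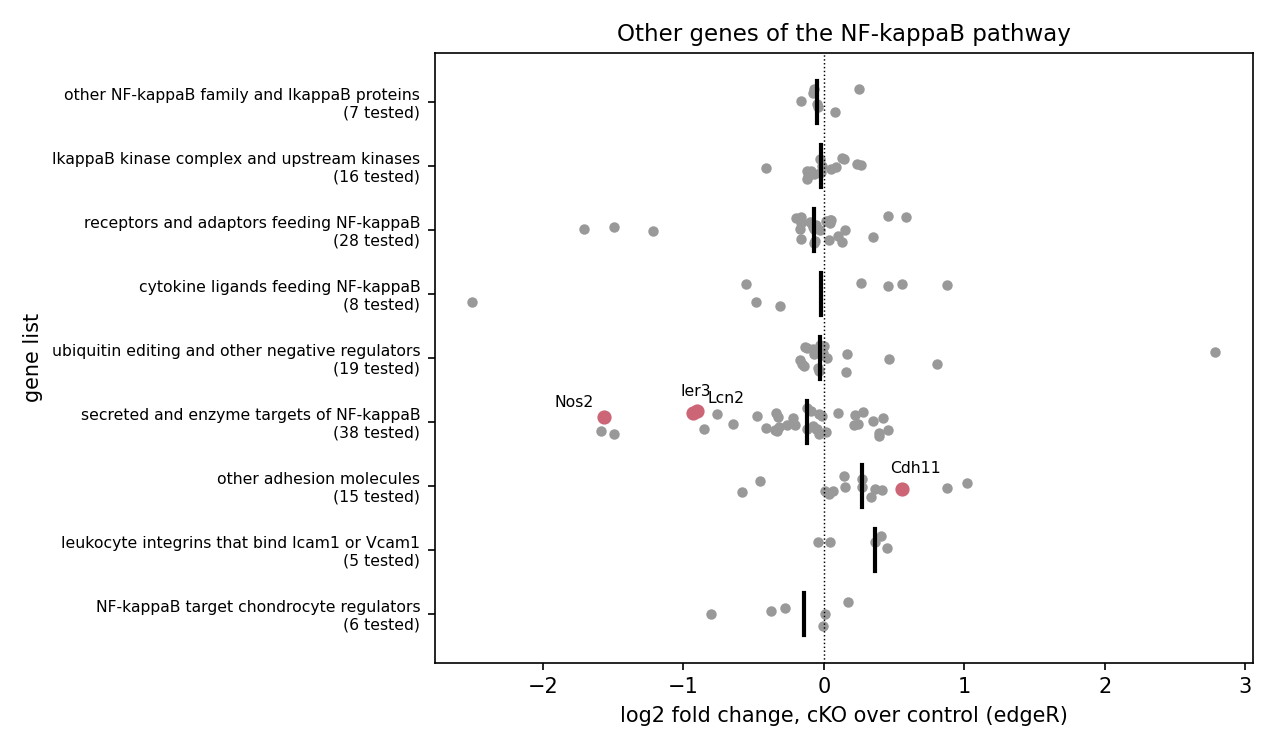
Log2 fold change of cKO over control for each tested gene of 9 pathway lists (grey points; red and named, adjusted p under 0.05; black line, list median; vertical scatter within a list has no meaning). Nos2, Ier3 and Lcn2 lie to the left and Cdh11 to the right, while the lists of subunits, kinases and receptors centre near 0.

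Of 15 other adhesion molecules, Cdh11 rose and none fell by edgeR. This 1 call is 6.67% of the list, against 1.30% of all genes tested (0.393% higher). DESeq2 called 3 higher and 1 lower, against 8.73% of all genes to which it gave an adjusted p. Cdh11, a cadherin of mesenchymal and synovial lining cells, went from 323 and 313 to 451 and 487 CPM, a log2 fold change of 0.56 ± 0.06 (SE; edgeR adjusted p = 0.0289). The list had 0 calls when either control replicate 1 or control replicate 2 was left out. The list median was 0.27, and 13 of the 15 were above 0, against 7824 of all 15522 genes tested. The leukocyte integrin genes that bind Icam1 or Vcam1 gave no call among 5 tested (2 at an unadjusted p under 0.05, 0 by DESeq2). Those 2 are 40% of the 5, against 17.2% of all genes tested. Itgb7 was at 0.45, Itga9 at 0.41 and Itgb2 at 0.36. Itgal had 5 and 20 counts in controls and 9 and 4 in cKO, so the leukocyte partner of Icam1 was near the floor of detection.

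Marker sums of other cells were compared in the same libraries, since Icam1 and Vcam1 are also made by stromal and endothelial cells. By edgeR 9 of 11 chondrocyte markers fell (81.8%, against 1.30% of all genes tested), with the sums given above. The 8 fibroblast and synovial lining markers summed to 5546 and 5582 CPM in controls, against 7119 and 7660 CPM in cKO. Most of this sum was Col1a1 (2061 and 1984 against 2674 and 2746 CPM) and Col3a1 (2599 and 2486 against 3325 and 3541 CPM). By edgeR 3 of the 8 were called higher, 37.5% against 1.30% of all genes tested. Ly6a alone was below 0 (log2 fold change -0.15), at 238 and 486 CPM in controls, against 292 and 361 CPM in cKO. In edgeR fits without control replicate 1, or without control replicate 2, no chondrocyte or fibroblast marker was called, although all 11 chondrocyte markers and 7 or 8 of the fibroblast markers had an unadjusted p under 0.05; these marker fits were chosen after seeing the data. Adipocyte markers summed to 212 and 215 CPM in controls, against 313 and 505 CPM in cKO. Most of this sum was Lpl (99.7 and 109.7 against 161 and 252 CPM) and Fabp4 (81.0 and 70.4 against 98.7 and 152 CPM). The adipocyte marker Pparg was near 0, with a log2 fold change of 0.06. None of the 8 was called by edgeR, with 6 at an unadjusted p under 0.05. Those 6 are 75% of the list, against 17.2% of all genes tested. DESeq2 called 5, against 8.73% of all genes to which it gave an adjusted p. The part of these shifts in the Icam1 and Vcam1 values was not tested, and in bulk RNA fewer cells of a type and less RNA per cell cannot be told apart. Endothelial markers summed to between 2.91 and 4.23 CPM and leukocyte markers to between 19.3 and 26.5 CPM, with overlap between the groups. Muscle markers, with control sums of 4.57 and 28.9 CPM and cKO sums of 59.8 and 12.7 CPM, did not separate the groups, nor did the erythroid ones, at 0.168 to 0.603 CPM. Osteoblast and osteoclast markers summed to 491 and 484 CPM in controls, against 437 and 394 CPM in cKO. Most of this sum was Ctsk, at 470 and 460 CPM in controls, against 415 and 374 CPM in cKO. Ibsp went the other way, from 10.7 and 10.2 to 11.9 and 12.4 CPM. Of the 7 tested, 5 were below 0 and 2 above, with no call by edgeR.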

How the data were processed

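RNA was measured in 4 libraries, 2 control and 2 cKO, grouped by the sample titles. Poly(A) RNA was enriched, fragmented and copied with random primers, per the labels' protocols. The authors deposited raw counts of reads per gene symbol. HISAT2 2.2.1 and StringTie 2.1.7, Trim Galore 0.6.7 and FastQC 0.11.9, and the build mm10 are named in the submitters' processing notes, without roles. The counting step, its strand setting and annotation are details not given in the sources used here.

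Of 25239 symbols, 15522 passed filterByExpr (edgeR 4.0.16, R 4.3.3, minimum count 10). Counts were scaled by TMM and tested with glmQLFit and glmQLFTest without covariates (biological coefficient of variation 0.174), adjusted over all genes at 0.05, and the code was tested on simulated data. The standard error was taken as |log2 fold change| divided by the root of F. Distances between profiles used log2 CPM with a prior count of 2. Replicates were not near-identical: chi-square per degree of freedom was 37.8 in control and 41.9 in cKO. Positions and exon lengths come from GENCODE M21 (96.4% of symbols, all 10 members), promoters from RefSeq GRCm38.p6 (250 bases before to 50 after the start). Alternatives were other scalings, no filter, DESeq2 1.42.0, limma-voom (limma 3.58.1), a replicate block, counts divided by 4 (multiples of 4 made up 30.0% to 32.0% of the values from 1 to 20 in each library) and each library left out.

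Members and lists were chosen with earlier results of these data known, so no set test and no adjustment over the members alone is given. Named genes are all members, Trabd2b, the 5 nearest profiles to the member with the smallest p (mean log2 CPM of at least 1, no predicted gene models), and per list those called or otherwise up to 3 with the smallest p.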

Additional observations from a re-analysis of the deposited data

How the results depend on the processing

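The number of genes called, 202 in all, was 1171 with DESeq2, 333 with limma-voom and 371 with counts divided by 4, and between 5 and 782 when 1 library was left out. Of the 10 members, 1 was called under these settings, except that leaving out a library gave 0 to 1. Of 140 pathway list genes, 4 were called, against 19 with DESeq2, 8 with counts divided by 4 and 0 to 13 without 1 library. The replicate numbers share no stated animal or batch (correlation of same-numbered deviations -0.12). A fit with the replicate number as a block called 23 genes, 0 members and 1 list gene, with Icam1 at -0.54 (edgeR adjusted p = 0.0645). With the numbers crossed, an alternative added after seeing the data, the block called 564 genes, 1 member and 11 list genes. Icam1 lay between -0.58 and -0.47 over 11 alternatives, 3 of which lost the call: the replicate block and leaving out either control. Its adjusted p over them ran from 1.0e-09 (DESeq2) to 0.15 (edgeR without control replicate 2).

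The 5 level genes changed sign in some settings, with adjusted p-values of 0.70 or more wherever they did. With library sizes alone Nfkb1 was at 0.051, Nfkb2 at 0.0065, Nfkbia at 0.031 and Nfkbiz at 0.043. Leaving out 1 library gave -0.0084 to 0.050 for Rela, -0.0497 to 0.025 for Nfkb1, -0.12 to 0.011 for Nfkb2, -0.082 to 0.013 for Nfkbia and -0.056 to 0.0095 for Nfkbiz. Relb, Bcl3, Tnfaip3 and Vcam1 kept their direction and stayed uncalled in all 11. Each member had at least 994 counts in every library.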
